A study of Mus musculus with 10 samples.

Results

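The 10 genes described here carry the insulin signal inside the liver cell and answer to it. They are the insulin receptor gene Insr, the receptor substrates Irs1 and Irs2, the kinases Akt1 and Akt2, the forkhead factors Foxo1 and Foxo3, the coactivator Ppargc1a and the sestrins Sesn1 and Sesn3. They were taken by gene symbol from the deposited count table, where all 10 were found among 55487 genes, and the rule reads names only, not values. RNA was sequenced from liver tissue of mice aged 22 months, of the strain the labels give as C57B/6J, kept on normal chow. The LKO group held 5 libraries of mice lacking Arg2 in hepatocytes (Arg2LKO), and the Flox group held 5 libraries of co-housed Arg2fl/fl littermates, whose floxed Arg2 was not deleted. The study asked what the loss of Arg2, the mitochondrial arginase, does to the transcriptome of the old liver. The driver of the deletion is not given in the sources used here. Counts per library ranged from 43331354 to 54951415, and each of the 10 genes had between 162 and 5561 counts in every library.

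When insulin binds its receptor, the receptor phosphorylates the IRS adaptors, which recruit PI3 kinase and thereby activate AKT. AKT phosphorylates the FOXO factors and keeps them out of the nucleus, so that in the fed liver FOXO targets such as Igfbp1, G6pc and Irs2 are held down. In fasting, FOXO1 and the coactivator PGC-1 alpha, the product of Ppargc1a, promote glucose output. Sestrins are stress-induced and FOXO- or p53-induced proteins that restrain mTOR complex 1.

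Arg2 had 10 counts in all 5 LKO libraries together and 9 counts in all 5 Flox libraries together, with 3 libraries at 0 in each group, so these counts do not check the deletion. Exons of Arg2 overlap those of Vti1b on the opposite strand (21970 counts over the 10 libraries), and whether counting used strand is not known from the sources used here. Each 0 allows up to 3 counts, and this limit covers counting error only. Some features of the libraries touch the results below. The acute phase score, the mean log2 CPM (read counts scaled to a common library size by TMM) of 8 inflammation-induced hepatocyte genes, was 6.82 to 9.45 in LKO and 11.7, 12.6 and 10.7 in Flox libraries 2, 3 and 4, against 7.82 and 7.15 in Flox libraries 1 and 5. The clock score, the log2 level of Dbp, Per1 and Per2 minus that of Arntl and Npas2, lay at -1.64 in LKO column 1 and between 1.52 and 6.32 in the other 4 LKO columns. It lay between -2.17 and -1.03 in Flox libraries 1 to 3, and at 4.32 and 4.71 in Flox libraries 4 and 5. The clock gene Nr1d1, listed beside the genes of this score, was left out of it. Nr1d1 averaged 89.5 ± 6.37 CPM in LKO and 58.7 ± 41.3 CPM in Flox (SD, n = 5 each). LKO libraries are called by their column number, because the columns run from 1 to 5 while the LKO titles run from 6 to 10. A library is also called a liver below, though the labels do not state that each library is a separate mouse. Summed over 6 markers each, hepatocyte genes ranged from 127343 to 155042 CPM in LKO and from 56099 to 124062 CPM in Flox. Alb made up most of this sum, with means of 108226 CPM in LKO and 70404 CPM in Flox. Of the 6 hepatocyte markers, 4 had log2 fold changes above 0 and 2 below. T and NK cell genes ranged from 1.53 to 3.08 CPM in LKO and from 3.17 to 9.11 CPM in Flox. For erythroid genes the sums were 449.6 to 879 CPM in LKO and 224 to 397 CPM in Flox. The sums of Kupffer cell, neutrophil, sinusoidal endothelial, stellate cell, cholangiocyte and adipocyte markers overlapped between the groups. No marker was at 0 in every library. The part of these differences in the results below was not tested, apart from the scores named there. In bulk liver, a change in the share of a cell type and a change of RNA per cell cannot be told apart.

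None of the 10 insulin and FOXO genes differed between LKO and Flox livers by more than the test requires. By edgeR's quasi-likelihood test, adjusted over all 15894 genes tested, 0 of the 10 genes were below an adjusted p of 0.05, as were 0% of all genes tested (smallest adjusted p = 0.652). All 10 passed the filter on low counts. Log2 fold changes of LKO over Flox were above 0 for Irs1, Foxo3, Ppargc1a, Sesn1 and Sesn3 and below 0 for Insr, Irs2, Akt1, Akt2 and Foxo1, with a median of -0.01 over the 10 genes and of -0.01 over all genes tested. At an unadjusted p under 0.05 the test held 1 of the 10, Akt1, against 7.51% of all genes. DESeq2 also called 0 genes after adjustment, with 1603 of 32926 genes (4.87%) at an unadjusted p under 0.05, where edgeR had 1193 of 15894. For none of the 10 did the 2 groups separate without overlap, which happened for 0.906% of all genes (0.535% with LKO above and 0.371% with LKO below). Without Flox libraries 2 and 3, which have the highest acute phase scores, 3 of the 10 genes lay above 0 and 7 below, and none had an unadjusted p under 0.05. The standard errors of the 10 fold changes ran from 0.09 (Akt2) to 0.32 (Irs2) on the log2 scale, so that the 95% intervals given below bound what these livers allow.

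**Figure D1:**
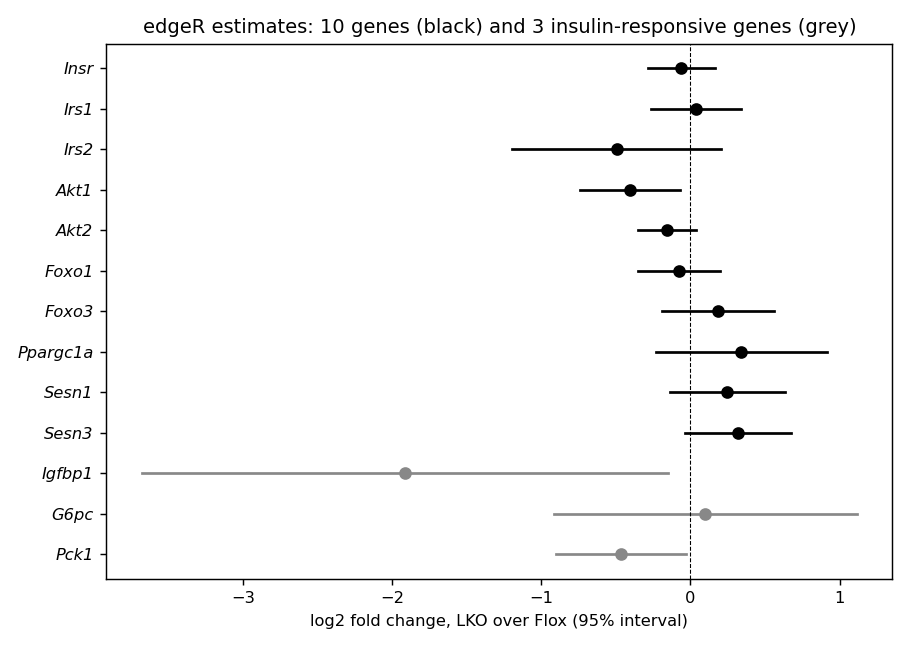
Log2 fold change of LKO over Flox with its 95% interval from edgeR (x axis) for the 10 insulin and FOXO genes in black and 3 insulin-responsive liver genes in grey (y axis). The intervals of Akt1, Igfbp1 and Pck1 end below 0, although no adjusted p was under 0.652, and Igfbp1 has the widest interval, from -3.68 to -0.15.

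Per kilobase of exon, the AKT genes stood highest and Irs1 and Ppargc1a lowest in both groups. Akt1 averaged 13.1 ± 0.881 CPM per kb in LKO and 17.3 ± 4.31 in Flox, and Akt2 averaged 12.6 ± 0.794 in LKO and 14.1 ± 1.27 in Flox (SD, n = 5 each). Insr (6.74 ± 0.488 in LKO and 7.03 ± 0.890 in Flox) and Foxo3 (6.55 ± 0.887 in LKO and 5.77 ± 1.604 in Flox) came next. Akt1 and Akt2, and Insr and Foxo3, did not differ from each other beyond their SD in either group, while the step between Akt2 and Insr exceeded it in both. Foxo1, Sesn1, Irs2 and Sesn3 followed, between 2.05 and 3.39 CPM per kb in LKO and between 1.64 and 3.66 in Flox. At the low end, Ppargc1a was at 1.28 ± 0.190 and Irs1 at 1.16 ± 0.183 CPM per kb in LKO, against 1.01 ± 0.411 and 1.13 ± 0.178 in Flox, and these neighbours too did not differ beyond their SD. Irs2 took different places in the groups, lying below Foxo1 and Sesn1 in LKO and next to Foxo1 in Flox.

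**Figure D2:**
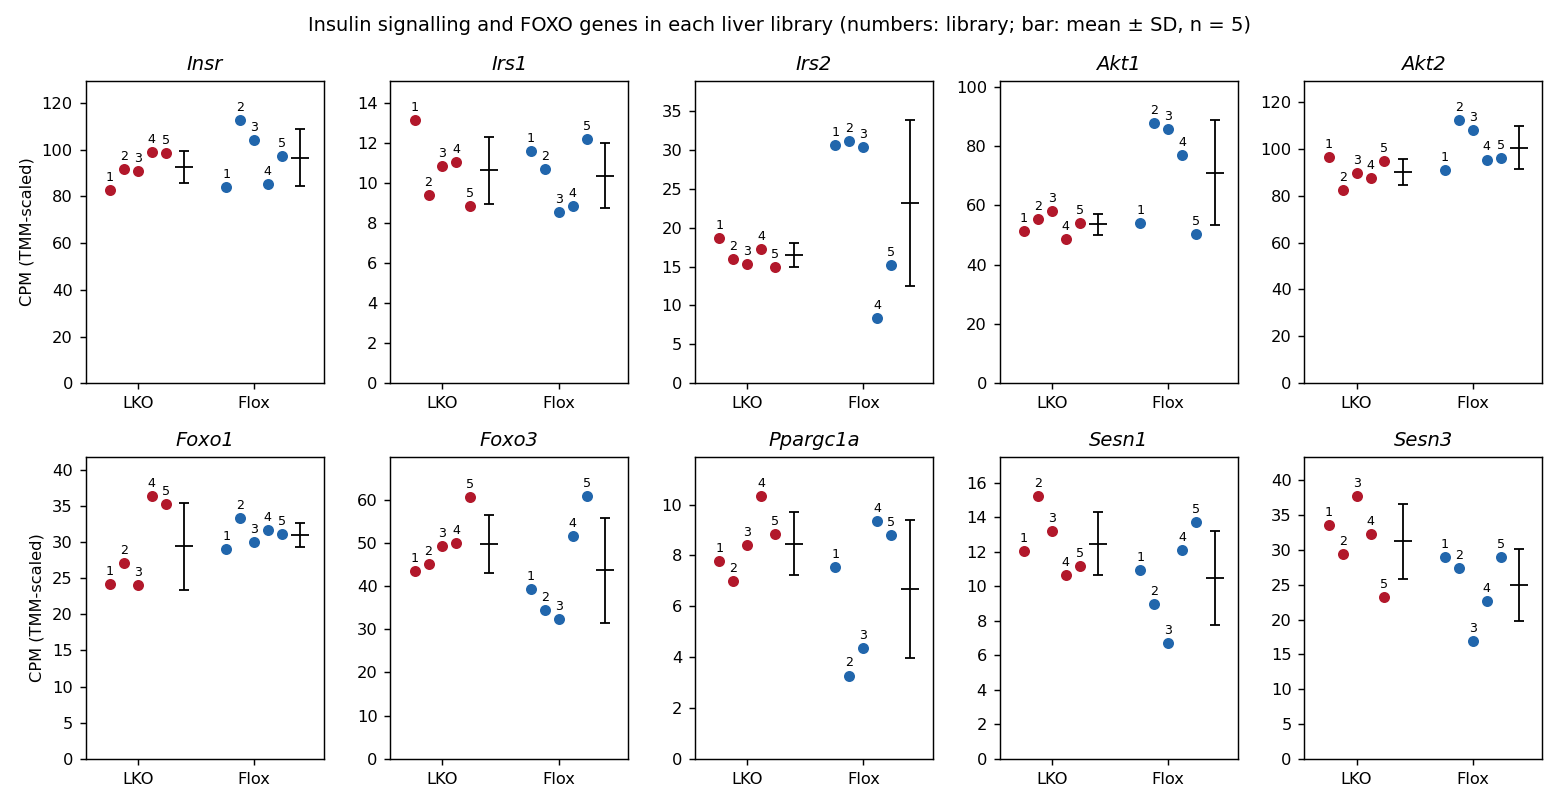
TMM-scaled CPM (y axis, from 0) of each of the 10 genes in the 5 LKO and 5 Flox libraries (x axis), with library numbers beside the points and the mean ± SD of each group as a black bar. Irs2 and Akt1 are each high in 3 Flox libraries, but only libraries 2 and 3 are shared between those sets, and Ppargc1a is lowest in the same 2 libraries.

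Some of these genes are themselves known FOXO targets, and the windows from 250 bases before to 50 bases after their start sites were searched for the FOXO core GTAAACA and the insulin response element core CAAAACA, and also for the E-box CACGTG and the cAMP response element TGACGTCA, on both strands. RefSeq promoters (GRCm38.p6) were found for 9 of the 10 genes, with 14 start sites. No promoter was found for Insr, which was therefore not searched. A FOXO core or insulin response element core lay in 4 of the 14, against 9.63% of 32851 mouse promoters (3.65% for GTAAACA and 6.28% for CAAAACA alone). The cAMP response element was in none of the 14, against 1.79% of all. An E-box was in 2 of the 14, against 7.15% of all: these are the promoters of Irs1 and Irs2, the pair of adaptors, and each also holds the insulin response element core within a few bases of the E-box. No FOXO core or insulin response element core lay in the windows of Akt2, Foxo1, Foxo3, Ppargc1a or Sesn3. Of 3 insulin-responsive liver genes searched beside them, Igfbp1 and G6pc held a core and Pck1 did not. The windows of the 10 genes that hold a FOXO-type core are shown, with that of Igfbp1, the classical insulin-repressed gene of liver, for comparison. They are written 5′ to 3′ on the gene's strand, with FOXO-type cores (as TGTTTTG or TGTTTAC where they lie on the opposite strand) and E-boxes in capitals. Irs2 lies at chr8:11008880-11009179 (minus strand), Irs1 at chr1:82291390-82291689 (minus strand), Akt1, the first of 2 start sites, at chr12:112674835-112675134 (minus strand), Sesn1, the first of 2, at chr10:41810324-41810623 (plus strand) and Igfbp1 at chr11:7197537-7197836 (plus strand).
Irs2: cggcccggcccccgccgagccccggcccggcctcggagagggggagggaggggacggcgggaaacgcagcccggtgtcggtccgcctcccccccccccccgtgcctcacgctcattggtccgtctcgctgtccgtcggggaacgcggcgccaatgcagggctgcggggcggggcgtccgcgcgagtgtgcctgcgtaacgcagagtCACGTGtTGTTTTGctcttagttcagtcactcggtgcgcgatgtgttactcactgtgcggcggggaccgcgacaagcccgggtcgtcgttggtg
Irs1: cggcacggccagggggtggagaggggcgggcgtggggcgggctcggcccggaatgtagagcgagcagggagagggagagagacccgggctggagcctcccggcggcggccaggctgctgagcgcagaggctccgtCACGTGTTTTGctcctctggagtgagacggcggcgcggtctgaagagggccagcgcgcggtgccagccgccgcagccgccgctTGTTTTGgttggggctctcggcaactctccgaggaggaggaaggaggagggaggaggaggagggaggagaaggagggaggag
Akt1: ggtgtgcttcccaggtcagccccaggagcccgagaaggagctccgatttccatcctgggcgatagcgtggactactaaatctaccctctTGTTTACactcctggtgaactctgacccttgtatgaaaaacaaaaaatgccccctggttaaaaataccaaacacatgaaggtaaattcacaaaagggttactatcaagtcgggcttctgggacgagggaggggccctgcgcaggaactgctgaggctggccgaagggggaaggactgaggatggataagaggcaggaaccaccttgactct
Sesn1: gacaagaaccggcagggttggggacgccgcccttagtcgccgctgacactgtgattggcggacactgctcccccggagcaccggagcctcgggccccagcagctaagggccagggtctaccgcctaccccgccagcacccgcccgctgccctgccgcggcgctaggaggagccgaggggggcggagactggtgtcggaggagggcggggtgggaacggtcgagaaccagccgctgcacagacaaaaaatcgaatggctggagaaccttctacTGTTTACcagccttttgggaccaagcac
Igfbp1: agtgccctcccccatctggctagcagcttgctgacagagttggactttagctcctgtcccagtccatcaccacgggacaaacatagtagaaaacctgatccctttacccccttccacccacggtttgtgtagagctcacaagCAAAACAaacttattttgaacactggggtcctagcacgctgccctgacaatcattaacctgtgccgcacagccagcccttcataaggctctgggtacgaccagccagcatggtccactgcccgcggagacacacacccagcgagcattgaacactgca
Counted from the start site, the E-box of Irs2 begins at position -44 and its insulin response element core at -37, with 1 base between them. In Irs1 the E-box begins at -115 and shares its last bases TG with a core that begins at -111, and another core begins at -32. The core of Igfbp1 begins at -108, that of Akt1 at -161 and that of Sesn1 at 23, behind the start. A match of letters is a description and does not show that a factor binds there.

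At the receptor, Insr (ENSMUSG00000005534, chromosome 8, 3122061 to 3279617, GRCm38), which encodes the insulin receptor itself, varied little. It ranged from 82.7 to 99.0 CPM in LKO (median 91.9) and from 84.1 to 113 CPM in Flox (median 97.3). The LKO range lay almost wholly inside the Flox range, and the log2 fold change was -0.06 ± 0.10 (SE; 95% interval -0.28 to 0.16; edgeR adjusted p = 0.874). The sign of this small value turned without Flox library 2 (0.0014) and without libraries 2 and 3 (0.06).

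The adaptor genes differed in how steady they were. Irs2 (ENSMUSG00000038894, chromosome 8, 10984681 to 11008458), the substrate through which insulin acts in the fasted liver and which FOXO factors induce, had 18.7, 16.03, 15.4, 17.3 and 14.9 CPM in LKO columns 1 to 5, against 30.7, 31.1, 30.4, 8.41 and 15.2 CPM in Flox libraries 1 to 5. The 5 LKO livers thus sat close together, inside the Flox range, while Flox split into 3 high and 2 low livers. Its coefficient of variation was 9.29% in LKO and 45.9% in Flox, and its SD over the 10 libraries (0.59 on the log2 scale) was larger than that of 81.0% of all genes tested. The log2 fold change was -0.49 ± 0.32 (SE; 95% interval -1.19 to 0.21; adjusted p = 0.677), and -0.14 without Flox libraries 2 and 3. Irs1 (ENSMUSG00000055980, chromosome 1, 82233101 to 82291416), the other main adaptor, ranged from 8.83 to 13.1 CPM in LKO and from 8.54 to 12.2 CPM in Flox. Its log2 fold change was 0.04 ± 0.14 (SE; 95% interval -0.27 to 0.34; adjusted p = 0.945), with a sign that turned in 6 of 17 alternative settings.

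Akt1 had the smallest unadjusted p of the 10. Akt1 (ENSMUSG00000001729, chromosome 12, 112653821 to 112674884), a serine kinase shared by most tissues, had 51.4, 55.2, 58.2, 48.8 and 54.1 CPM in LKO columns 1 to 5, against 54.0, 87.7, 85.7, 76.9 and 50.3 CPM in Flox libraries 1 to 5. Flox libraries 2, 3 and 4 lay above every LKO library, and Flox libraries 1 and 5 lay within the LKO range. The log2 fold change was -0.41 ± 0.16 (SE; 95% interval -0.74 to -0.07; unadjusted p = 0.0226, edgeR adjusted p = 0.652), and it was -0.18 without Flox libraries 2 and 3 and -0.10 with the acute phase score in the fit. Akt2 (ENSMUSG00000004056, chromosome 7, 27591552 to 27640826), the isoform through which insulin controls glucose in liver, ranged from 82.4 to 96.6 CPM in LKO and from 91.0 to 112 CPM in Flox. Its groups overlapped, and its log2 fold change was -0.16 ± 0.09 (SE; 95% interval -0.35 to 0.04; adjusted p = 0.660). It was -0.06 without Flox libraries 2 and 3, and its unadjusted p was 0.0496 with library totals (edgeR adjusted p = 0.603).

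Akt1 followed the acute phase score across the livers. In an edgeR fit with the group and this score as terms, a test added after the data were seen, Akt1 rose by 0.14 ± 0.03 (SE) on the log2 scale for each unit of the score (adjusted p = 0.0124 over 15894 genes), where 6.17% of all genes passed, 2.66% with a positive and 3.51% with a negative slope. Flox livers 2, 3 and 4, with the highest scores, also had the most Akt1. The slope was 0.13 to 0.15 when any library was left out, but the adjusted p was 0.0647 without Flox library 1, 0.116 without Flox library 5 and 0.154 without Flox libraries 2 and 3, fits in which 1.7%, 1.06% and 2.17% of all genes passed. Since those high scores occur in Flox only, the group and the score cannot be fully told apart. T and NK cell markers had summed levels of 1.53 to 3.08 CPM in LKO and 3.17 to 9.11 CPM in Flox. The lowest Flox sum thus lay just above the highest LKO sum. Each of the 6 markers alone overlapped between the groups, and none passed (smallest edgeR adjusted p = 0.652). The part of these markers was not tested.

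**Figure D3:**
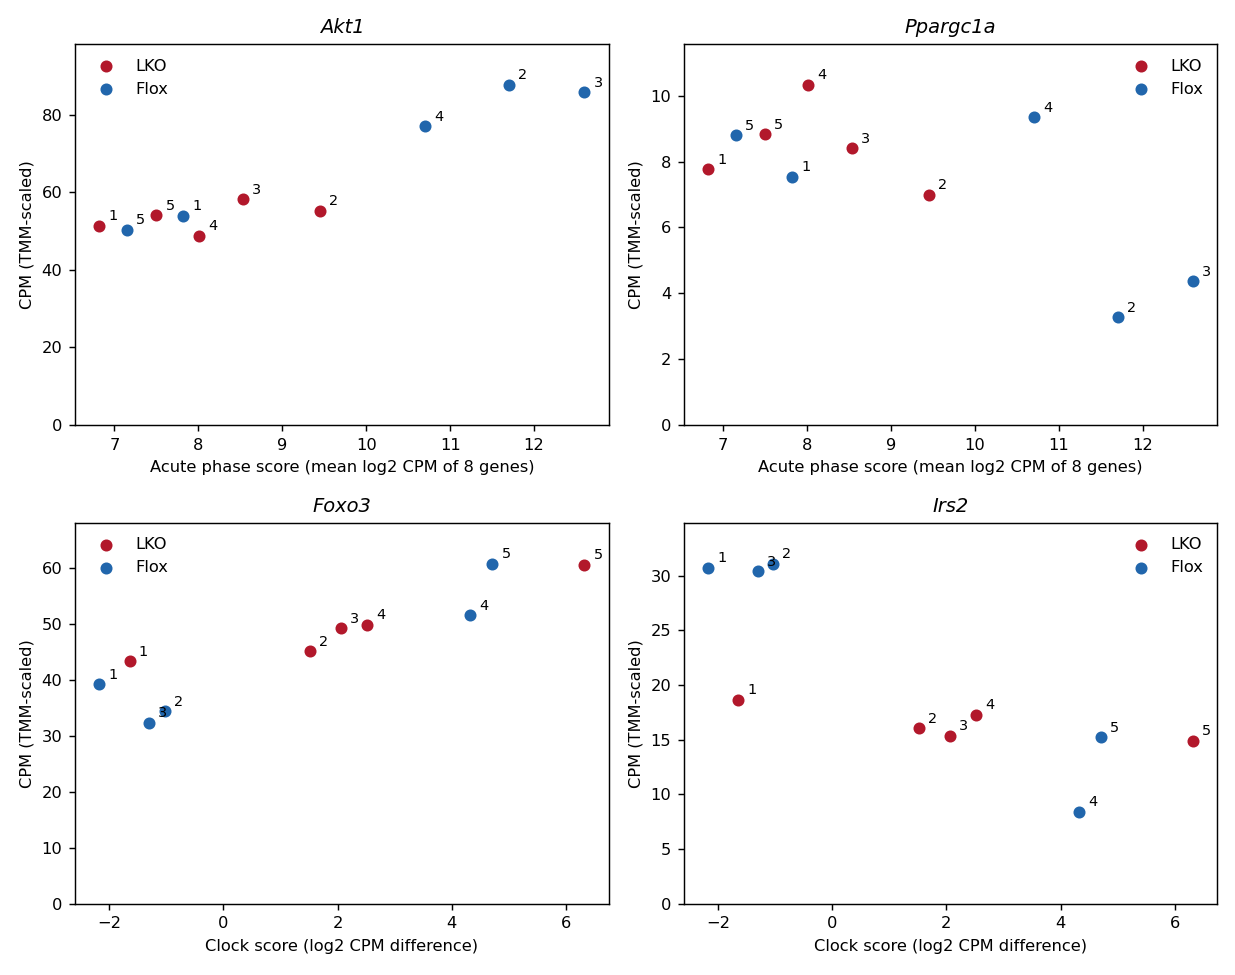
CPM (TMM-scaled, y axis from 0) of Akt1 and Ppargc1a against the acute phase score (upper panels) and of Foxo3 and Irs2 against the clock score (lower panels), 1 point per library with its number, LKO in red and Flox in blue. Akt1 is highest in the 3 Flox livers with acute phase scores from 10.7 to 12.6, and Foxo3 is highest where the clock score is highest, in both groups.

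Neither forkhead factor passed the test, and the spread of Foxo1 and of Foxo3 lay in different groups. Foxo1 (ENSMUSG00000044167, chromosome 3, 52268336 to 52353221), the main insulin-restrained activator of glucose production in liver, had 24.2, 27.1, 24.01, 36.3 and 35.2 CPM in LKO columns 1 to 5, against 29.0, 33.2, 29.9, 31.7 and 31.0 CPM in Flox libraries 1 to 5. Here the LKO livers spread more widely than Flox, with 3 below and 2 above the whole Flox range. The coefficient of variation was 20.3% in LKO and 5.28% in Flox, and the log2 fold change was -0.08 ± 0.13 (SE; 95% interval -0.35 to 0.20; adjusted p = 0.870). Of the 10 genes, 7 had the larger SD in Flox, as did 59.6% of all genes tested. Foxo3 (ENSMUSG00000048756, chromosome 10, 42181841 to 42276755), the longevity-associated relative of Foxo1, had 43.4, 45.1, 49.2, 49.9 and 60.6 CPM in LKO columns 1 to 5, against 39.2, 34.4, 32.3, 51.6 and 60.8 CPM in Flox libraries 1 to 5. Every LKO value lay inside the Flox range, and the log2 fold change was 0.18 ± 0.17 (SE; 95% interval -0.19 to 0.56; adjusted p = 0.764), with -0.03 without Flox libraries 2 and 3. Foxo4, another family member, was at 25.8 ± 0.479 CPM in LKO and 25.1 ± 3.47 CPM in Flox (SD, n = 5 each).

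Foxo3 and Irs2 had slopes of opposite sign on the clock score, neither past the adjusted threshold beside the group term with TMM scaling and the filter on low counts. Foxo3 had a slope of 0.09 ± 0.02 (SE) log2 units per unit of the clock score beside the group term (edgeR adjusted p = 0.0731, unadjusted p = 0.000354), which missed the threshold that 0.346% of all genes passed (0.157% with a positive and 0.189% with a negative slope). In the fit of group and clock score it passed with library totals (adjusted p = 0.0355, where 0.359% of all genes passed) and with no filter (0.0490, where 0.333% passed). With both scores in the fit the adjusted p was 0.0225, where 0.617% of all genes passed. Leaving out 1 library at a time gave adjusted p from 0.0763 to 0.305, the highest without Flox library 5, and leaving out Flox libraries 2 and 3 gave 0.170. The lowest Foxo3 values were in Flox libraries 1 to 3 and LKO column 1, the livers with clock scores below 0, and the highest were in Flox library 5 and LKO column 5. Irs2 had a slope of -0.14 ± 0.04 (SE; adjusted p = 0.337, unadjusted p = 0.00598). Its high livers were Flox 1 to 3, and the livers with positive scores, 4 of LKO and 2 of Flox, all lay at or below 17.3 CPM. LKO column 1, with a clock score of -1.64, did not share the high level, at 18.7 CPM. Irs2 and Foxo3 had a Pearson r of -0.784 and a Spearman rho of -0.879 over the 10 libraries (permutation p = 0.00775 and 0.00156; adjusted over the 45 pairs of the 10 genes 0.0956 and 0.0702), and neither passed the adjustment. Without the 2 livers farthest from the median of Irs2, r was -0.861, and without Flox libraries 2 and 3 it was -0.584. Within the groups of 5, r was -0.707 in LKO and -0.801 in Flox, given here without a test.

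Ppargc1a, the fasting-induced coactivator, was lowest in Flox livers 2 and 3, which have the highest acute phase scores, while Flox 4, with the next highest score, had 9.35 CPM. Ppargc1a (ENSMUSG00000029167, chromosome 5, 51454250 to 51567726) had 7.76, 6.99, 8.40, 10.3 and 8.83 CPM in LKO columns 1 to 5, against 7.54, 3.28, 4.37, 9.35 and 8.81 CPM in Flox libraries 1 to 5. Flox libraries 2 and 3 lay below every other liver, and the other 8 overlapped. The log2 fold change was 0.34 ± 0.26 (SE; 95% interval -0.23 to 0.92; adjusted p = 0.719), and -0.02 without these libraries. Its slope on the acute phase score was -0.16 ± 0.07 (SE; edgeR adjusted p = 0.181), with an adjusted p of 0.0309 without Flox library 4, where 7.11% of all genes passed, and it lost its sign without Flox libraries 2 and 3 (0.01). Foxo3 and Ppargc1a had a Pearson r of 0.821 and a Spearman rho of 0.830 (permutation p = 0.00221 and 0.00453; adjusted over the 45 pairs 0.0956 and 0.102). Without Flox libraries 2 and 3, which were also the 2 farthest from the median of Foxo3, r was 0.583.

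Both sestrins had higher means in LKO, without passing the test. Sesn3 (ENSMUSG00000032009, chromosome 9, 14275067 to 14333101), a FOXO-induced sestrin, had 33.5, 29.4, 37.7, 32.3 and 23.2 CPM in LKO columns 1 to 5, against 28.9, 27.4, 17.0, 22.6 and 29.0 CPM in Flox libraries 1 to 5. Of the LKO livers, 4 lay above every Flox liver and column 5 lay near the low end. The log2 fold change was 0.32 ± 0.16 (SE; 95% interval -0.03 to 0.68; unadjusted p = 0.0718, edgeR adjusted p = 0.652), and it stayed above 0 in the 17 alternative settings (0.18 to 0.42). Sesn1 (ENSMUSG00000038332, chromosome 10, 41809935 to 41908424), best known as a p53 target, had 12.1, 15.2, 13.2, 10.7 and 11.2 CPM in LKO columns 1 to 5, against 10.9, 8.99, 6.73, 12.1 and 13.7 CPM in Flox libraries 1 to 5. The groups overlapped, with Flox 2 and 3 lowest, and the log2 fold change was 0.25 ± 0.18 (SE; 95% interval -0.14 to 0.63; adjusted p = 0.700). It was 0.13 without Flox library 3 and 0.02 without Flox libraries 2 and 3. Sesn2, a leucine-sensing sestrin, was at 5.85 ± 1.31 CPM in LKO and 6.48 ± 1.02 CPM in Flox (SD, n = 5 each).

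The liver genes best known to answer to insulin showed how far single Flox livers could depart. Igfbp1, a secreted binding protein that FOXO1 induces and insulin represses, had 11.3, 15.6, 18.4, 16.7 and 13.9 CPM in LKO columns 1 to 5, against 198.7, 31.6, 32.4, 13.0 and 10.4 CPM in Flox libraries 1 to 5. Flox library 1 stood far above every other liver, and libraries 2 and 3 also lay above all LKO livers, so that the same 3 Flox livers were high in Igfbp1 and Irs2. The log2 fold change was -1.91 ± 0.78 (SE; adjusted p = 0.652), and -0.53 without Flox library 1. G6pc, the glucose-6-phosphatase of glucose release, ranged from 125 to 213 CPM in LKO and had 347 CPM in Flox library 1 and 41.5 CPM in Flox library 3 (log2 fold change 0.10 ± 0.45 SE; adjusted p = 0.954). Pck1, which makes phosphoenolpyruvate for new glucose, averaged 1383 ± 286 CPM in LKO and 1910 ± 464 CPM in Flox (SD, n = 5 each; -0.47 ± 0.20 SE; adjusted p = 0.652).

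The wider pathway was read from 8 lists, in which the smallest adjusted p was again 0.652 (edgeR), so that 0 genes passed. The lists include the 10 genes described above, and some genes are counted in more than 1 list. Beside the counts below, 3.17% of all genes were higher and 4.33% lower at an unadjusted p under 0.05. Among 20 genes of the receptor, its adaptors and PI3 kinase, 10 had values above 0 and 10 below (median log2 fold change 0.00). Pde3b, the phosphodiesterase that insulin activates, was at 73.5 ± 9.04 CPM in LKO and 55.4 ± 10.2 CPM in Flox, and Gab1, a docking protein, at 12.1 ± 1.86 CPM in LKO and 9.36 ± 2.08 CPM in Flox (SD, n = 5 each; unadjusted p = 0.0105 and 0.0442, edgeR adjusted p = 0.652 for both). With Akt1 they were the members below an unadjusted 0.05. Among 20 brakes on the pathway, 9 were above 0 and 11 below (median -0.01). Ptpn1, the phosphatase that acts on the insulin receptor, was at 28.0 ± 2.99 CPM in LKO and 42.96 ± 14.9 CPM in Flox, the cytokine-induced inhibitor Socs1 at 0.349 ± 0.101 CPM in LKO and 2.24 ± 3.42 CPM in Flox, and the ubiquitin ligase gene Cblb at 4.79 ± 0.608 CPM in LKO and 6.11 ± 0.806 CPM in Flox (SD, n = 5 each). These 3 had the smallest p of the list (0.0134 to 0.0249 by edgeR, adjusted 0.652). The Socs1 log2 fold change was -2.66, and -1.05 without Flox library 3. Ptpn1 was also among the 5 genes most like Akt1 over the 10 libraries (Pearson r = 0.978), and the Ptpn1 log2 fold change of -0.62 was -0.26 without Flox libraries 2 and 3.

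**Figure D4:**
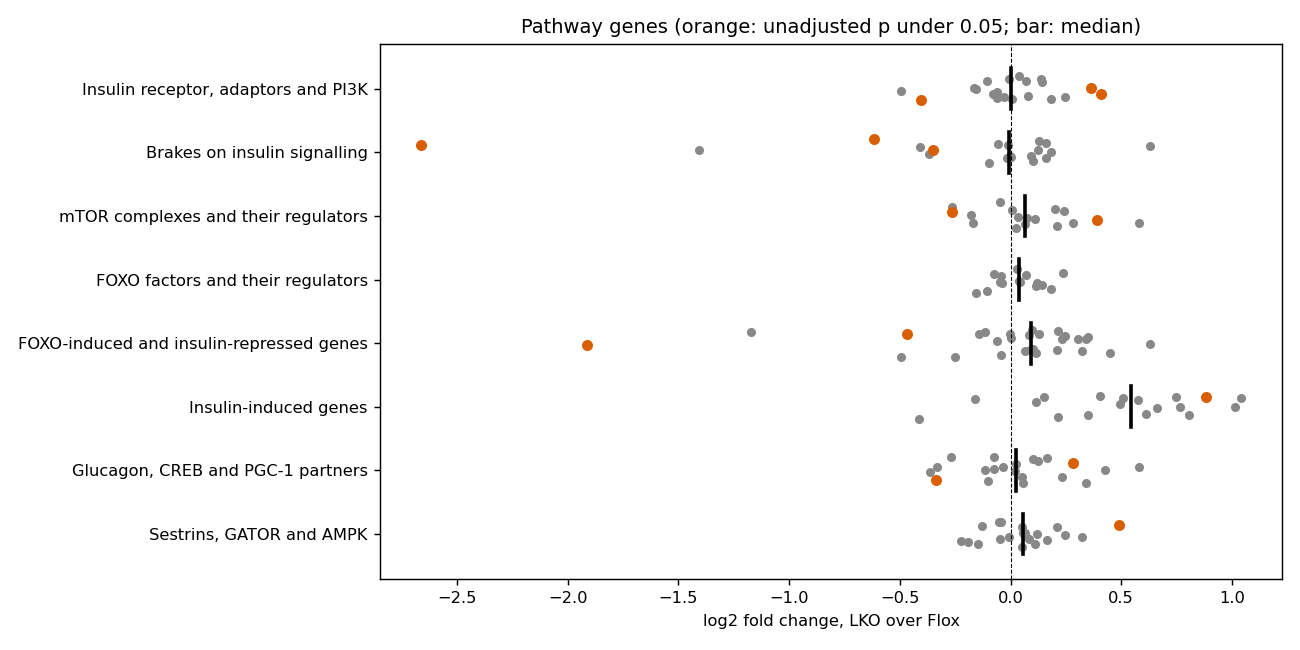
Log2 fold change of LKO over Flox (x axis) of each tested gene in 8 pathway lists (y axis), with genes at an unadjusted p under 0.05 in orange and the median of each list as a black bar. All medians lie near 0 except that of the insulin-induced genes, at 0.54, and no gene passed after adjustment.

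Genes that insulin induces were the list whose median lay farthest from 0. Of 18, 16 had values above 0 and 2 below (median log2 fold change 0.54, against -0.01 over all genes), but without Flox libraries 2 and 3 the counts were 10 and 8 and the median 0.04, and with the acute phase score in the fit 8 and 10. Leaving out 1 library moved the median to 0.29 without Flox library 3 and to 1.04 without Flox library 5. Angptl8, an insulin-induced hormone that blocks lipoprotein lipase, stood at 96.7 ± 17.1 CPM in LKO and 52.5 ± 16.3 CPM in Flox (SD, n = 5 each; log2 fold change 0.88 ± 0.21 SE; unadjusted p = 0.00122, edgeR adjusted p = 0.652). Its LKO group lay above Flox without overlap, as happened for 0.535% of all genes tested. The Angptl8 log2 fold change was 0.80 without Flox libraries 2 and 3. Pklr, liver pyruvate kinase, and Ppp1r3b, a glycogen-targeting phosphatase subunit, had log2 fold changes of 0.81 ± 0.55 and 0.35 ± 0.25 (SE). Of 28 FOXO-induced or insulin-repressed genes, 18 were above 0 and 10 below (median 0.09), with Igfbp1, Pck1 and the stress gene Gadd45b (log2 fold change -1.17 ± 0.57 SE) at the smallest p, all on the lower side. Gadd45b was low, at 0.875 ± 0.277 CPM in LKO and 1.98 ± 2.15 CPM in Flox (SD, n = 5 each). Its unadjusted p was 0.0623 and its edgeR adjusted p 0.652.

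Of 17 genes of the mTOR complexes and their regulators, 12 lay above 0 and 5 below (median 0.06). Deptor, an inhibitor within both mTOR complexes, was at 232 ± 27.3 CPM in LKO and 177 ± 40.9 CPM in Flox, Akt1s1, which encodes the AKT substrate PRAS40, at 50.8 ± 6.28 CPM in LKO and 61.0 ± 8.37 CPM in Flox, and Tsc1 at 24.1 ± 4.30 CPM in LKO and 20.3 ± 2.03 CPM in Flox (SD, n = 5 each). Of 15 tested FOXO factors and regulators, 9 lay above 0 and 6 below (median 0.04), and the exportin gene Xpo1, through which FOXO proteins leave the nucleus, came nearest to the threshold (log2 fold change 0.24 ± 0.11 SE; unadjusted p = 0.0511, edgeR adjusted p = 0.652). The deubiquitinase gene Usp7 and the acetyltransferase gene Ep300 followed, at 0.12 ± 0.09 and 0.14 ± 0.10 (SE). Foxo6 was below the filter. Of 21 glucagon, CREB and PGC-1 genes, 12 lay above 0 and 9 below (median 0.03). The glucocorticoid receptor gene Nr3c1 was at 70.4 ± 7.60 CPM in LKO and 57.9 ± 3.96 CPM in Flox (SD, n = 5 each). For Nr3c1 LKO lay above Flox without overlap, as for 0.535% of all genes tested. The glucagon receptor gene Gcgr was at 148 ± 17.7 CPM in LKO and 186 ± 22.7 CPM in Flox, and Crebl2 at 42.4 ± 2.44 CPM in LKO and 37.9 ± 2.56 CPM in Flox (SD, n = 5 each). Of 21 tested sestrin, GATOR and AMPK genes, 13 lay above 0 and 8 below (median 0.06), led by Prkaa2, the catalytic AMPK subunit alpha 2, at 54.3 ± 10.5 CPM in LKO and 38.7 ± 7.30 CPM in Flox (SD, n = 5 each; log2 fold change 0.49 ± 0.15 SE; unadjusted p = 0.00820, edgeR adjusted p = 0.652). Wdr24, a GATOR2 subunit gene, had a log2 fold change of -0.22 ± 0.12 (SE). Each of these lists held at most 1 gene higher and 1 lower at an unadjusted p under 0.05.

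For the most variable of the 10 genes, those with the closest profile over the 10 libraries were named among genes whose mean log2 CPM reached 1, as a description with no test, since libraries share the scores described above. Irs2 ran closest with Rpusd4, Mterf4, 1110038F14Rik, Supt6 and Otud3 (Pearson r = 0.926 to 0.943). Ppargc1a ran closest with Slc25a37, Tk1, Klk1b4, Mr1 and Ptprs (r = 0.943 to 0.992), and among those closest to Sesn1 were Habp4, Dclk3, Fam13a and Taf1b (r = 0.919 to 0.927). By rank, Spearman rho of these named genes was 0.745 to 0.976 with Irs2, 0.709 to 0.976 with Ppargc1a and 0.648 to 0.867 with Sesn1. Outside that rule, and chosen after their values were seen, Per3 and Ppargc1b were among the 5 genes most like Foxo3 (r = 0.968 and 0.969), Per3 being a gene of the circadian clock and Ppargc1b the relative of Ppargc1a. The acute phase gene Lrg1 was the gene most like Akt1 (r = 0.979).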

How the data were processed

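Total RNA of 10 liver samples was isolated with Trizol and primed or selected by oligo-dT, per the labels' protocols. The authors deposited raw counts of reads per Ensembl gene, as whole numbers, per the file headers. Among the tools in the submitters' processing notes are the aligner STAR (2.5.1a) and the counter featureCounts (1.4.6-p5) of Subread, and the build is GRCm38. The sources used here do not give strandedness or how multi-mapping reads were counted. No overlapping gene had more than 29 counts over the 10 libraries at any of the 10 genes described.

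After 287 repeated identifiers with identical counts were dropped, 55487 genes remained. Genes were kept by filterByExpr at its defaults (15894 kept). TMM factors lay between 0.963 and 1.04. LKO and Flox were compared by the quasi-likelihood F test of edgeR 4.0.16 (robust, R 4.3.3), two-sided, with Benjamini-Hochberg adjustment and a threshold of 0.05. Standard errors come from the F statistic. Values are CPM scaled by TMM, and log2 CPM uses a prior count of 2. Exon lengths and positions are from GENCODE M21 (GRCm38). The fits were tested on simulated counts. Alternatives were DESeq2 1.42.0, other scalings, no filter, covariates, and leaving out libraries. The slopes on the scores, their alternatives and the permutation tests of pairs (100000 resamples) were added after the data were seen.

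The genes, lists and tests were chosen with earlier results of these data known. The rule for named genes took the 10 genes, Arg2, Igfbp1, G6pc and Pck1, up to 4 genes a list and direction past the adjusted threshold or else the 3 with the smallest unadjusted p, and the 5 closest profiles of the 3 most variable genes. Some genes that the rule takes are not reported here, though list counts include them where they belong to a list. Foxo4 and Sesn2 were named beside their relatives after their values were seen. The labels do not state that each library is a separate mouse, so p-values measure the spread between libraries, which may be technical in part.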

Additional observations from a re-analysis of the deposited data

Results flagged for a closer look

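In 26 groups of 5 libraries (the 10 genes and Igfbp1, G6pc and Pck1, each in LKO and in Flox), 2 had a library far from the others by Dixon's criterion on the CPM scale, where chance alone gives about 1 in 20. Both were Flox library 1, which stood above the rest of Flox in Igfbp1 (gap over range 0.883) and in G6pc (0.728). The Flox mean without it was 21.9 CPM for Igfbp1 (57.2 with it) and 97.9 CPM for G6pc (148 with it). This liver had a low acute phase score (7.82) and the lowest clock score (-2.17).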

How the results depend on the processing

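The counts of genes past the adjusted threshold stayed at 0 in both directions under each of the 17 alternatives. Genes at an unadjusted p under 0.05 numbered 1193 of 15894 tested. They ranged from 465 of 15894 with the acute phase score in the fit to 2043 of 32998 with no filter on low counts. The fit with no filter tested more genes, so the largest count is not the largest share. Counts also moved by over 1.5 times without Flox library 3 (575 of 16176), Flox library 5 (1885 of 16096), LKO column 4 (739 of 16168) and Flox libraries 2 and 3 (517 of 16551). The share of these genes that were higher in LKO was 42.2%, against 25.8% with library totals, 53.6% without Flox libraries 2 and 3 and 55.7% with the acute phase score. No paired analysis was possible because the labels give LKO and Flox libraries no shared replicate numbers. Some log2 fold changes turned their sign, and the cause was not tested. Without Flox libraries 2 and 3 they became -0.0363 for Fam13a, -0.0271 for Foxo3, -0.267 for G6pc, 0.0597 for Insr, -0.0287 for Irs1, 0.144 for Otud3, -0.0191 for Ppargc1a, -0.189 for Ptprs, 0.0574 for Rpusd4, -0.0931 for Slc25a37, 0.00758 for Supt6 and -0.00494 for Tk1. With the acute phase score in the fit they were -0.386 for G6pc, 0.0168 for Insr, -0.121 for Irs1, -0.0333 for Ppp1r3b, -0.0862 for Ptprs and -0.0344 for Slc25a37. With the clock score they were 0.0208 for Otud3 and 0.00631 for Rpusd4, and with library totals -0.000896 for Irs1. Leaving out 1 library at a time gave -0.131 to 0.693 for G6pc, -0.11 to 0.00142 for Insr, -0.0497 to 0.105 for Irs1 and -0.244 to 0.0343 for Otud3. Without Flox libraries 2 and 3, the slope of Ppargc1a on the acute phase score was 0.0125. Pearson's r with Ppargc1a then was 0.0991 for Akt1 and 0.302 for Akt2, against -0.762 and -0.757 over all 10 libraries. Neither 10-library value passed the adjustment over the 45 pairs (permutation test, adjusted p = 0.0956 for both). The lowest count of any of the 10 genes in a library was 162, and the interval of each fold change rests on the spread of 5 libraries a group.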
